A study of Mus musculus with 4 samples.

Results

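The genes described here serve glucose uptake, glycolysis, the pentose phosphate branch, glycogen and the response to low oxygen. They are 36 named genes out of 18193 genes with a probe set of their own on Affymetrix mouse whole-genome arrays, and each was found by its symbol in the platform annotation. The list was proposed with results of the comparison below in view, so the members' values are a description and carry no test. Dorsal skin was taken at postnatal day 16 from 2 wild type mice and from 2 bitransgenic mice with overexpression of deltaNp63alpha, the p63 form lacking an amino-terminal transactivation domain. By their labels the arrays are biological replicates, so each genotype has n = 2 animals. The sources used here do not name the promoter behind the transgene, the litters or any inducing treatment.

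Glucose enters cells through transporters of the Slc2a family and is trapped by hexokinases. Glycolysis splits it to pyruvate, which is either oxidised in mitochondria or reduced to lactate and exported by monocarboxylate transporters of the Slc16a family. A side branch, the pentose phosphate pathway, yields NADPH and ribose, and glycogen is the storage form. Hypoxia-inducible factor, whose alpha subunit is marked for destruction by oxygen-dependent prolyl hydroxylases of the Egln family, switches on many genes of glucose uptake and glycolysis when oxygen is low. Epidermis itself has no blood vessels, and keratinocytes are known for high glycolytic activity.

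Values are array signals on a linear scale. Differences are of log2(signal + 16), bitransgenic minus wild type, with the standard error (SE) of limma's moderated fit over 13070 genes, and folds are taken on that scale. A gene is said to be called when its Benjamini-Hochberg adjusted p in that fit is under 0.05. Of the 4 probe sets for Trp63, which codes for p63, 2 were higher in bitransgenic skin by at least 1 on the log2 scale, up to 4.85, and the lowest value was -0.33. Skeletal muscle markers (16 of 16 tested) had summed signals of 296924 in wild type replicate 1, 122875 in wild type replicate 2, and 29269 and 34248 in the bitransgenic mice, with 9 called lower. Hair shaft markers (11 of 12 tested) summed to 103904 and 168435 in the wild type mice against 1115 and 7841 in the bitransgenic mice, with 10 called lower. Stress keratinocyte markers (10 of 10 tested) summed to 39057 and 54769 in the wild type mice against 101761 and 139678 in the bitransgenic mice, with 5 called higher. Basal keratinocyte markers were present on all arrays, with summed signals from 53879 to 80911. In whole skin, fewer cells of a type and less RNA per cell cannot be told apart.

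Of the 36 members, 32 were tested and all 32 had group means above the filter signal of 57.0 in both genotypes. Gapdh had only the maker's control probe sets under its own symbol, which were not part of the fit, and no probe set in the annotation used here carried Gpi1, Eno1 or G6pdx as its symbol. Among the 32, 1 was called, Slc2a1, against 2.33% of all genes tested. It was higher, a direction in which 0.75% of all genes were called. None was called lower, against 1.58% of all genes. In limma's fit, 8 members were higher and 6 lower at an unadjusted p under 0.05, against 6.91% and 9.76% of all genes. Because the list was proposed with results of this comparison in view, these counts and those that follow only describe it. An excess over the share of all genes is no test of the list. Signals of the genotypes did not overlap for 14 members that were higher and 10 that were lower, against 23.9% and 24.9% of all genes. Differences of at least 1 on the log2 scale numbered 6 in the higher and 4 in the lower direction, against 4.56% and 8.50% of all genes. The median of the 32 differences was 0.16, against 0.0053 for all genes tested. The list thus held members on both sides of 0. The 2 glucose transporters and 2 lower glycolysis members tested lay above 0, and the 4 glycogen enzymes below 0.

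**Figure D1:**
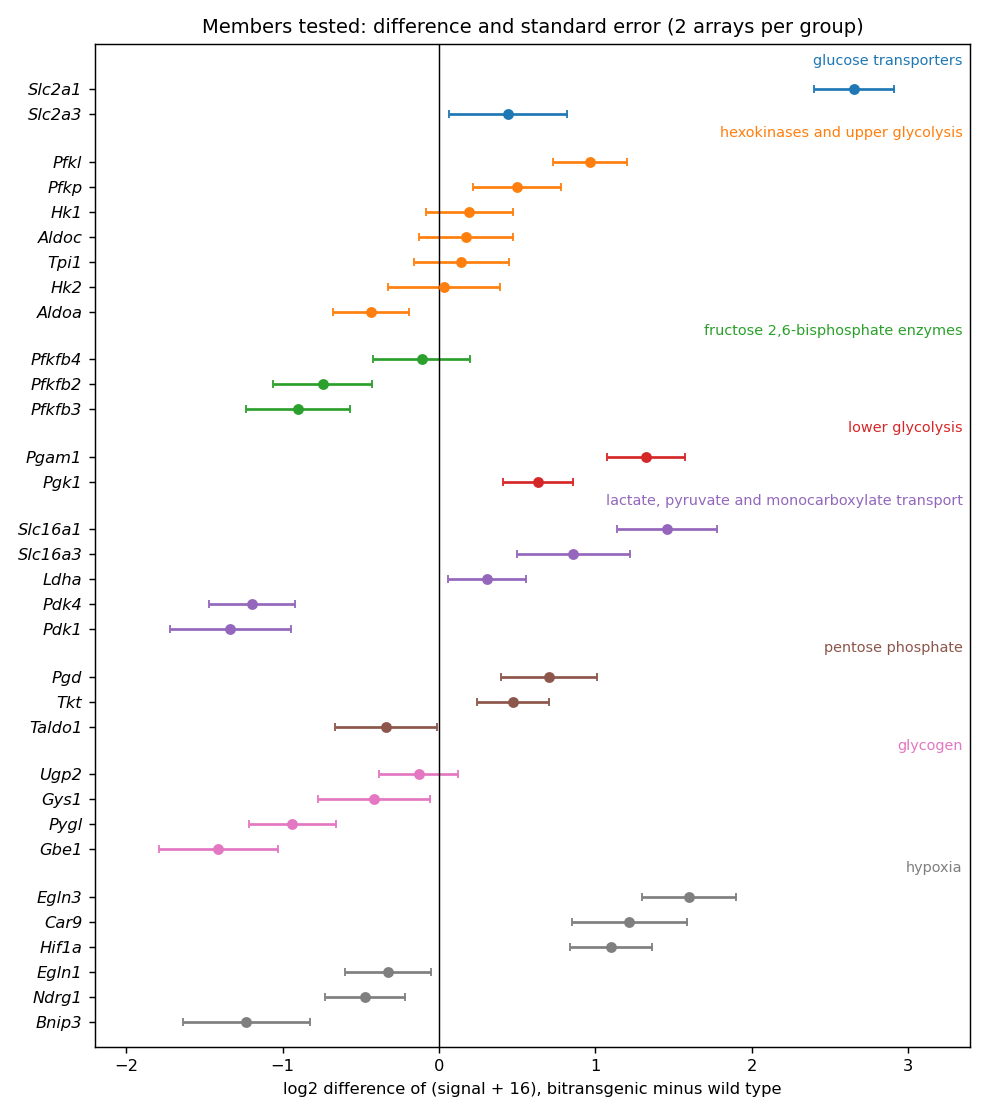
Log2 difference of (signal + 16), bitransgenic minus wild type, on the horizontal axis for the 32 members tested, grouped by role; points are differences and bars are standard errors of the limma fit, with 2 arrays per group. Slc2a1 stands at 2.66, and all 4 glycogen enzymes and all 3 Pfkfb genes lie below 0.

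The largest difference was that of Slc2a1, the glucose transporter GLUT1 and the main route of basal glucose uptake in many cells, keratinocytes included. Its signals were 999 and 731 in the wild type mice, in the order of replicate number used throughout, against 5772 and 5184 in the bitransgenic mice. Both bitransgenic animals therefore read several-fold above both wild type animals, a 6.30-fold difference (2.66 ± 0.26, SE; 95% interval 2.03 to 3.28). Its other probe sets read 656 and 596 against 4300 and 4851, and 431 and 416 against 2343 and 3228, with log2 differences of 2.84 and 2.65. All 3 probe sets agreed in direction and size. The difference lay between 2.43 and 2.88 under 13 alternative settings, and Slc2a1 was called under each of them. Slc2a3, the neuronal and leukocyte transporter GLUT3, was dim, with signals of 127 and 135 in the wild type mice against 143 and 235 in the bitransgenic mice (0.44 ± 0.38). Its other probe set past the filter gave 0.23 with overlapping groups. Slc2a1 and the stress keratinocyte markers were high on the same arrays, and the part of that cell state in the Slc2a1 value was not tested.

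**Figure D2:**
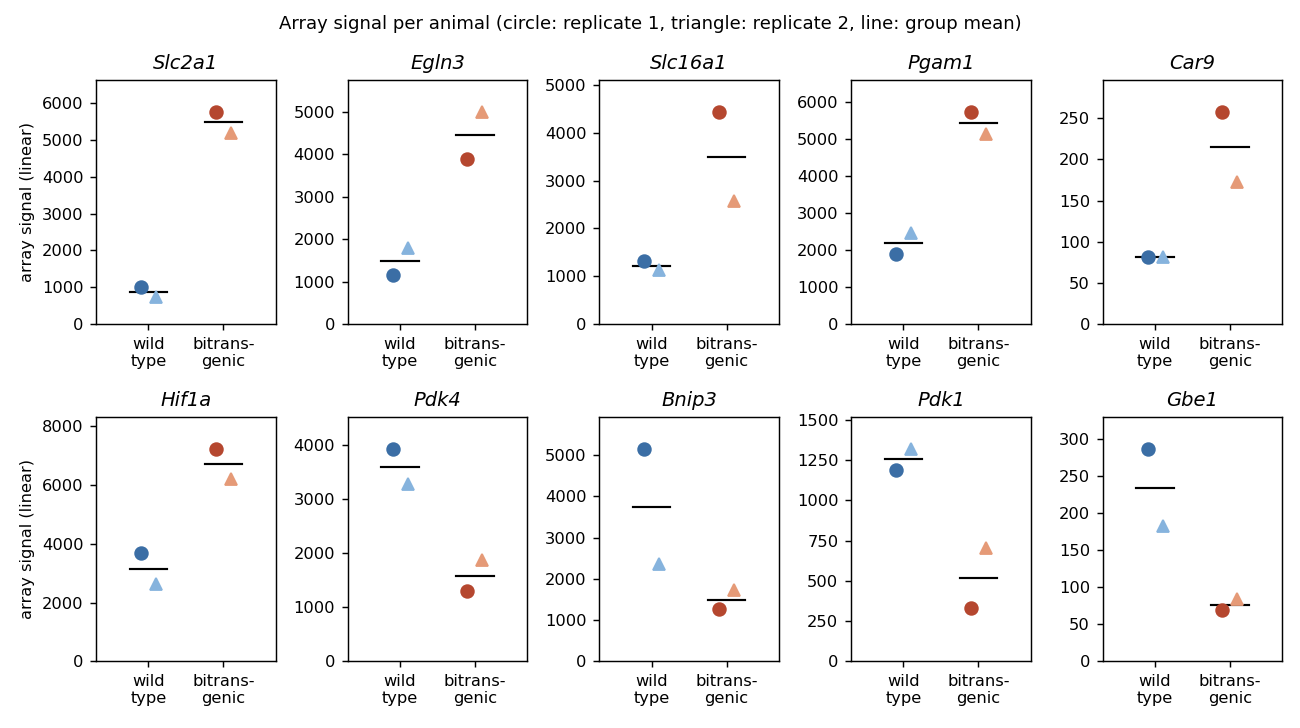
Linear array signal per animal (circle, replicate 1; triangle, replicate 2; line, group mean) for the 10 members whose genotypes did not overlap and whose log2 difference was at least 1 in size. Slc2a1, Egln3, Slc16a1, Pgam1, Car9 and Hif1a were higher in both bitransgenic animals, and Pdk4, Bnip3, Pdk1 and Gbe1 were lower in both.

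In upper glycolysis 4 of the 7 members tested had overlapping groups on their brightest probe sets. Of the 7, 2 did not overlap and were higher and 1 did not overlap and was lower, against 23.9% and 24.9% of all genes. Hk1 and Hk2, the hexokinases that phosphorylate incoming glucose, had overlapping groups, with means of 1249 ± 264 (SD) and 1424 ± 224 for Hk1 (0.19 ± 0.28, SE) and of 1956 ± 898 and 1899 ± 204 for Hk2 (0.033 ± 0.36). The dimmer probe set of Hk1 did not overlap, at 279 and 340 against 591 and 536 (0.84). The wild type animals themselves differed for Hk2, at 2591 and 1321. Pfkl, the liver-type subunit of phosphofructokinase, the committing enzyme of glycolysis, read 906 and 963 in the wild type mice against 1831 and 1847 in the bitransgenic mice (0.97 ± 0.24). Its 4 arrays thus fell into 2 tight pairs separated by genotype. Its other probe sets gave 0.84 without and 0.34 with overlap. Pfkp, the platelet-type subunit, read 3215 and 2627 against 3379 and 5005 (0.50 ± 0.28), and 1 of its 3 probe sets had the other sign (-0.099). The aldolase Aldoa, which is also the muscle aldolase, read 22743 and 19579 in the wild type mice against 14347 and 16995 in the bitransgenic mice (-0.43 ± 0.24). Its 5 probe sets lay between -0.81 and -0.43, and that at -0.61 had overlapping groups. All 5 carry the suffix _x_at and can also read related sequences. The brightest probe sets of Tpi1, Pgd and Tkt, described below, carry the same suffix. The related aldolase Aldoc and the triose phosphate isomerase Tpi1 had overlapping groups, with differences of 0.17 ± 0.30 and 0.14 ± 0.31.

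The enzymes that make and remove the allosteric activator of phosphofructokinase all had lower means in bitransgenic skin. Pfkfb3, a highly active maker of that activator, read 310 and 249 in the wild type mice against 130 and 153 in the bitransgenic mice (-0.90 ± 0.33). Pfkfb2 read 273 and 270 against 160 and 152 (-0.74 ± 0.32). Neither gene had overlapping groups on its brightest probe set, though 1 of the 3 Pfkfb2 probe sets gave -0.046 with overlap, so both stood on the opposite side of 0 from Pfkl. Pfkfb4 overlapped, with means of 531 ± 21.1 (SD) and 499 ± 137.

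In lower glycolysis, Pgam1, the phosphoglycerate mutase of most tissues, read 1889 and 2470 in the wild type mice against 5741 and 5148 in the bitransgenic mice. This was a 2.51-fold difference (1.33 ± 0.25, SE; 95% interval 0.73 to 1.92) without overlap. Pgk1, the phosphoglycerate kinase that makes the first ATP of the pathway, read 8564 and 7512 against 12269 and 12640 (0.63 ± 0.23), and its 3 probe sets lay between 0.63 and 1.18, the last with overlapping groups. On their brightest probe sets both enzymes were higher in both bitransgenic animals. Gapdh, the dehydrogenase one step earlier, could be read only through its control probe sets, where the 3' set gave 16750 and 16349 in the wild type mice against 15950 and 20049 in the bitransgenic mice (0.11). Its 5' set gave 10774 and 16038 against 16892 and 21536 (0.54), so the apparent change of Gapdh depended on the position of the probes. The ratio of 3' to 5' signal, a measure of RNA integrity, was 1.55 in wild type replicate 1 and between 0.931 and 1.02 in the other arrays. Its part in the members' differences was not tested.

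At the pyruvate branch point no member was called, and the members lay on both sides of 0. Slc16a1, the monocarboxylate transporter MCT1, read 1322 and 1126 in the wild type mice against 4443 and 2564 in the bitransgenic mice, a 2.74-fold difference (1.46 ± 0.32). Slc16a3, the lactate exporter MCT4, was dim and read 119 and 84.9 against 216 and 177 (0.86 ± 0.36). Neither transporter had overlapping groups. Of the related genes that are no members, the transporter Slc16a7 read 377 and 965 against 214 and 453 (-0.92 ± 0.54), and Bsg, the chaperone of these transporters, had a value of 0.25 ± 0.27, both with overlap. Ldha, the lactate dehydrogenase subunit that favours lactate formation, read 12749 and 9612 against 14415 and 13028 (0.31 ± 0.25), a difference whose interval ran from -0.30 to 0.91. Pdk1, a pyruvate dehydrogenase kinase and known target of hypoxia-inducible factor, read 1189 and 1319 in the wild type mice against 334 and 707 in the bitransgenic mice, 2.52-fold lower (-1.33 ± 0.39). Its other probe sets past the filter gave smaller differences, -0.98 with overlapping groups (636 and 966 against 214 and 702) and -0.54 without overlap (585 and 594 against 421 and 379). Pdk4, the kinase isoform of fasting, fat and muscle, read 3933 and 3282 against 1301 and 1870, 2.29-fold lower (-1.20 ± 0.27). The kinase Pdk3, no member, overlapped, at 1066 and 1549 against 1092 and 764 (-0.48 ± 0.32). The bitransgenic animals differed from each other in Slc16a1 and Pdk1: without replicate 1 the differences were 1.06 and -0.81, and without replicate 2 they were 1.85 and -1.86. Fat cell markers (8 of 10 tested, 0 called) summed to 71854 and 62339 in the wild type mice against 42152 and 42986 in the bitransgenic mice. Of the 8, 1 did not overlap and was higher and 6 did not overlap and were lower, against 23.9% and 24.9% of all genes. Their sum lay on the same side as Pdk4, and the part of fat cells in the Pdk4 value was not tested.

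Of the pentose phosphate enzymes, Pgd, the phosphogluconate dehydrogenase that yields NADPH, read 4778 and 4531 in the wild type mice against 9914 and 5795 in the bitransgenic mice (0.70 ± 0.31). Its 4 probe sets lay between 0.65 and 0.74, and bitransgenic replicate 1 was the highest array on each of them. The probe set at 0.73 had overlapping groups. Tkt, the transketolase that returns pentoses to glycolysis, read 14061 and 15994 against 20611 and 21042 (0.47 ± 0.23) without overlap, and its dimmer probe sets gave 0.99 and 1.11. Taldo1, the transaldolase, overlapped, with means of 5849 ± 1228 (SD) and 4740 ± 1756.

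All 4 glycogen enzymes had lower means in bitransgenic skin. Gbe1, the branching enzyme, read 287 and 182 in the wild type mice against 68.7 and 84.0 in the bitransgenic mice, 2.66-fold lower (-1.41 ± 0.38). Pygl, the liver-type glycogen phosphorylase that releases glucose units, read 1630 and 1365 against 665 and 895 (-0.94 ± 0.28). Both were lower in each bitransgenic animal than in either wild type animal. Gys1, the glycogen synthase of muscle and most other tissues, read 572 and 329 against 312 and 331 and overlapped, and wild type replicate 1 alone was high. Ugp2, which makes the activated glucose for glycogen, also overlapped, with means of 3683 ± 684 (SD) and 3351 ± 435. The outer root sheath of the hair follicle is known to store glycogen, and the 7 outer root sheath and bulge markers, all tested, summed to 41811 and 42884 in the wild type mice against 8815 and 14698 in the bitransgenic mice, with 2 called lower. The skeletal muscle marker sum was also lower in the bitransgenic mice, at 296924 and 122875 against 29269 and 34248. Like all 4 glycogen enzymes, it was highest in wild type replicate 1. The part of either marker set in the glycogen enzymes was not tested.

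Genes tied to hypoxia did not share a direction. Hif1a, the oxygen-regulated subunit of hypoxia-inducible factor, read 3676 and 2634 in the wild type mice against 7216 and 6191 in the bitransgenic mice, a 2.14-fold difference (1.10 ± 0.26), and its 3 probe sets past the filter lay between 0.48 and 1.19, the last with overlapping groups. This is the messenger RNA, while the known control by oxygen acts on the protein. Egln3, a prolyl hydroxylase and itself a target of the factor, read 1163 and 1793 against 3884 and 5009, a 3.03-fold difference (1.60 ± 0.30), and its second probe set gave 0.96. Car9, a membrane carbonic anhydrase and a widely used hypoxia marker, was dim, at 81.9 on both wild type arrays and 258 and 173 on the bitransgenic arrays (1.22 ± 0.37). These 3 genes were higher in both bitransgenic animals. Bnip3, a mitophagy receptor and classical target of the factor, went the other way, with 5152 and 2358 in the wild type mice against 1261 and 1728 in the bitransgenic mice, 2.35-fold lower (-1.23 ± 0.40). The Bnip3 value depended on which wild type array was used: it was -0.67 without wild type replicate 1 but -1.79 when the other was left out. Ndrg1, a stress and differentiation gene, read 3208 and 3598 against 2083 and 2864 (-0.47 ± 0.26), with its 5 probe sets between -0.54 and -0.34. Those at -0.52 and -0.44 had overlapping groups. Egln1, the main oxygen-sensing hydroxylase, read 1260 and 950 against 938 and 803 (-0.33 ± 0.27), and its dimmer probe set gave -0.16 with overlap. The muscle marker sum was also highest in wild type replicate 1, and the part of muscle in the Bnip3 value was not tested.

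The promoters of 6 members at least 1 apart on the log2 scale are shown, picked by no fixed rule. The core of the hypoxia response element, ACGTG or GCGTG on either strand, is marked where it occurs. Slc16a1, Hif1a, Pdk1 and Pdk4, also that far apart, are not shown, and each held a core in a window. Sequences are the 250 bases upstream of the annotated start, 5' to 3' on the gene's strand, from RefSeq on GRCm38.p6, and capitals mark every ACGTG or GCGTG and their reverse complements. The windows are chr4:119108495-119108744 on the plus strand for Slc2a1, chr19:41911621-41911870 on the plus strand for Pgam1, chr12:54203875-54204124 on the minus strand for Egln3, chr4:43506776-43507025 on the plus strand for Car9, chr7:138909507-138909756 on the minus strand for Bnip3 and chr16:70313699-70313948 on the plus strand for Gbe1.
Slc2a1: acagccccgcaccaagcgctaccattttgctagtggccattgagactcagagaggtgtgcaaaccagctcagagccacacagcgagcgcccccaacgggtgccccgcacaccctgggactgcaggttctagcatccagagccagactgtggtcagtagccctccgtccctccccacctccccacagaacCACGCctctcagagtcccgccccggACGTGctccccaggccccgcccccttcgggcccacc
Pgam1: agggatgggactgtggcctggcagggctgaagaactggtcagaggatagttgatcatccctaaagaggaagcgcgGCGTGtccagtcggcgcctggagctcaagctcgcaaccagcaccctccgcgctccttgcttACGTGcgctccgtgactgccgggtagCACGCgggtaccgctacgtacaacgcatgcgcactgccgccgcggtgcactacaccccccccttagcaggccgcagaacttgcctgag
Egln3: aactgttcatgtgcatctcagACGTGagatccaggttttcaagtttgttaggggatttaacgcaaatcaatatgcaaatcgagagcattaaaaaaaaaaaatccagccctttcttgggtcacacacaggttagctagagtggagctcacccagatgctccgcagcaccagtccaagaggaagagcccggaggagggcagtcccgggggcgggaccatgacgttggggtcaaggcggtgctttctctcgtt
Car9: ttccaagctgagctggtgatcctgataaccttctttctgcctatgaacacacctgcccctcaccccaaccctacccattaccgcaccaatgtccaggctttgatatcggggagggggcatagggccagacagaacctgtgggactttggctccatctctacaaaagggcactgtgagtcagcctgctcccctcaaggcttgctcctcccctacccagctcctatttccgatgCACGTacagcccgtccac
Bnip3: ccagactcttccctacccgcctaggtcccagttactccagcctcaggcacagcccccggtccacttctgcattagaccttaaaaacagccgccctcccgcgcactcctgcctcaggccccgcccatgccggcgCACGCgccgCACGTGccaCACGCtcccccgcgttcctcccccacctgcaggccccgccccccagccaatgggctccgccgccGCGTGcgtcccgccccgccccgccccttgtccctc
Gbe1: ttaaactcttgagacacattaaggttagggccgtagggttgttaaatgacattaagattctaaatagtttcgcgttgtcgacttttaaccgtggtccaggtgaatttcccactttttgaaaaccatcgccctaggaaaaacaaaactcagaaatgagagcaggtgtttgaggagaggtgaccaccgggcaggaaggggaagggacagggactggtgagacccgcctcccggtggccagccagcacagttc
The higher genes Slc2a1, Pgam1, Egln3 and Car9 and the lower gene Bnip3 each held ACGTG, and Gbe1 held neither core. In Bnip3 an ACGTG on each strand overlap in a palindrome, and 3 GCGTG cores lie around it.

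Promoter windows were found for 34 of the 36 members, and Ndrg1 and Slc2a3 had none. ACGTG occurred upstream of at least 1 annotated start in 17 of the 34 (50.0%), against 24.4% of 10511 genes tested that had a window and 18.5% of all 27025 genes with one. GCGTG occurred in 23 of the 34 (67.6%), against 48.3% of the genes tested and 30.9% of all genes. Among members tested that had a window, ACGTG was found in 10 of 17 with a higher and 7 of 13 with a lower mean in bitransgenic skin. GCGTG was found in 10 of the 17 and 10 of the 13. Among members at least 1 apart on the log2 scale, ACGTG was in 6 of the 6 higher and 1 of the 4 lower, and GCGTG in 3 of the 6 and 3 of the 4. Either core was in 6 of the 6 higher and 3 of the 4 lower. These few members were picked by their differences, so their counts by direction are a description only. The single-decamer motif of the p53 family, to which p63 belongs, occurred in 4 of the 34, namely Car9, G6pdx, Gys1 and Pgam1, against 7.45% of the genes tested and 8.20% of all genes. These matches describe letters in short windows and not binding.

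Of the 18 members with several probe sets past the filter, 17 had all of them on the same side of 0, and Pfkp was the exception.

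**Figure D3:**
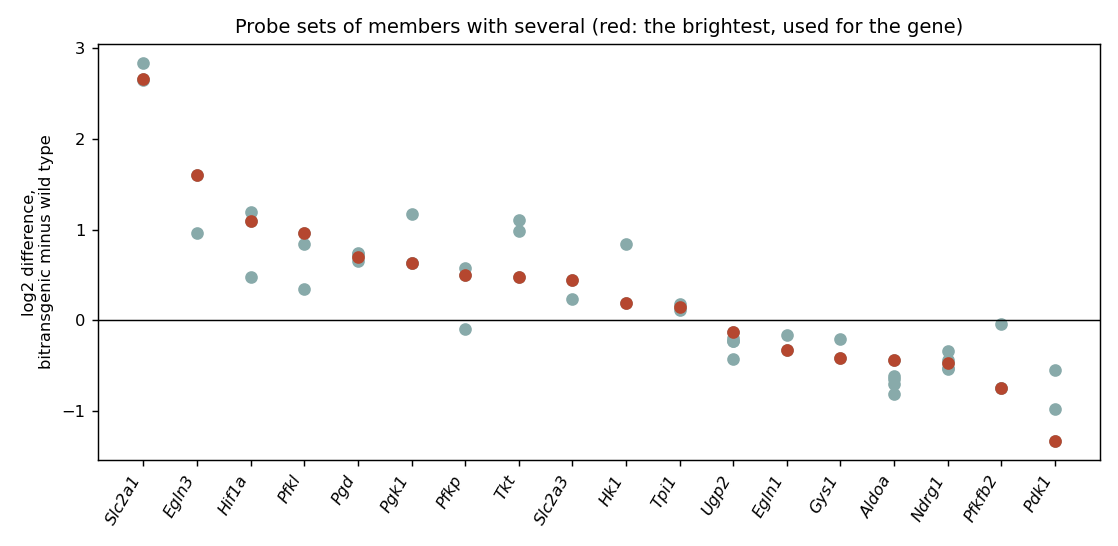
Log2 difference, bitransgenic minus wild type, on the vertical axis for every probe set past the filter of the 18 members with more than 1; red points are the brightest probe set, which stood for the gene. The 3 Slc2a1 probe sets lie between 2.65 and 2.84, and Pfkp is the gene with probe sets on both sides of 0.

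Other genes of the same pathways, 108 that are no members, were listed to set the members in context, and 93 of them were tested. By limma, 1 rose and 1 fell, against 0.75% of all genes called higher and 1.58% called lower. Fam162a, a mitochondrial protein induced by hypoxia, read 2983 and 3049 in the wild type mice against 7469 and 8485 in the bitransgenic mice and rose 2.63-fold (1.40 ± 0.22; adjusted p = 0.0355). Pgm2, a phosphoglucomutase that also acts on pentose phosphates, read 1956 and 2601 against 552 and 559 and fell, 3.98-fold lower in bitransgenic skin (-1.99 ± 0.26; adjusted p = 0.0201). The signals of both genes were far apart between genotypes on all arrays. Both calls were lost without bitransgenic replicate 1 (adjusted p = 0.162 for Fam162a and 0.112 for Pgm2) or bitransgenic replicate 2 (0.182 and 0.0858), and Fam162a also missed the threshold with no filter on dim probe sets (0.053) or without the intensity trend (0.0733). The median of the 93 was -0.13, with 38 positive and 55 negative values.

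No other gene of these lists was called, and the largest differences follow, with adjusted p values from limma over all genes tested. Slc5a1, the sodium-driven glucose transporter, read 269 and 243 in the wild type mice against 766 and 680 in the bitransgenic mice (1.44 ± 0.29; adjusted p = 0.0629), and Slc2a12 read 624 and 382 against 226 and 183 (-1.20 ± 0.36; adjusted p = 0.16). At the pyruvate step, Ldhb, the lactate dehydrogenase subunit that favours pyruvate formation, read 2201 and 2511 against 6063 and 4336 (1.12 ± 0.26; adjusted p = 0.0952). Pdk2 read 493 and 325 against 121 and 121 (-1.61 ± 0.35; adjusted p = 0.0815), on the same side of 0 as Pdk1 and Pdk4. Among 8 other pentose phosphate genes the values ran only from -0.43 for H6pd to 0.65 for Pgls. Of 31 other hypoxia genes tested, 18 were positive and 13 negative. At the extremes of their respective lists, P4ha2, a collagen prolyl hydroxylase, had a value of -1.58 ± 0.64 (adjusted p = 0.286), Gpd2, a mitochondrial glycerol phosphate dehydrogenase, of 0.82 ± 0.47 (0.464), and Gaa, the lysosomal glycogen glucosidase, of 0.42 ± 0.30 (0.566).

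The muscle isozymes of 4 steps had lower means in bitransgenic skin, and at 2 of these steps another isozyme had a higher mean. Pgam2, the muscle phosphoglycerate mutase, read 8447 and 1190 in the wild type mice against 207 and 271 in the bitransgenic mice (-3.66 ± 0.83; adjusted p = 0.0875 by limma), where Pgam1 had 1.33. Pfkm, the muscle phosphofructokinase, read 5441 and 1169 against 555 and 692 (-2.00 ± 0.66; adjusted p = 0.199), where Pfkl had 0.97. At the glycogen phosphorylase step the muscle form Pygm, the liver form Pygl (-0.94) and the brain form Pygb (-0.23) all lay below 0. Pygm read 4629 and 1224 against 216 and 300 (-3.15 ± 0.60; adjusted p = 0.0581), and the muscle enolase Eno3 read 16549 and 4206 against 694 and 1093 (-3.24 ± 0.62; adjusted p = 0.0581). Each of these 4 muscle isozymes was highest in wild type replicate 1, as the muscle marker sum was, and both bitransgenic arrays lay below both wild type arrays. Ppp1r3c, a glycogen-targeting subunit of protein phosphatase, had the same order of arrays, at 7278 and 1492 against 199 and 355 (-3.55 ± 0.71; adjusted p = 0.0654). With each array left out in turn, the difference ran from -5.06 to -2.25 for Pgam2 and from -4.69 to -2.42 for Ppp1r3c. It ran from -2.60 to -0.56 for P4ha2, -1.90 to -1.32 for Pdk2 and 1.36 to 1.53 for Slc5a1. With equal array medians Ppp1r3c was called (adjusted p = 0.0471 by limma), as were Eno3 and Pygm. At the enolase step no probe set carried Eno1 as its symbol, and the dim Eno2 lay below 0 (-0.31 ± 0.38; adjusted p = 0.749 by limma). Pfkm, Pygm, Eno2 and Eno3 were chosen after their values were seen. Pkm, the pyruvate kinase of most tissues, also chosen so, read 5388 and 5599 in the wild type mice against 8882 and 10006 in the bitransgenic mice (0.78 ± 0.22; adjusted p = 0.145).

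**Figure D4:**
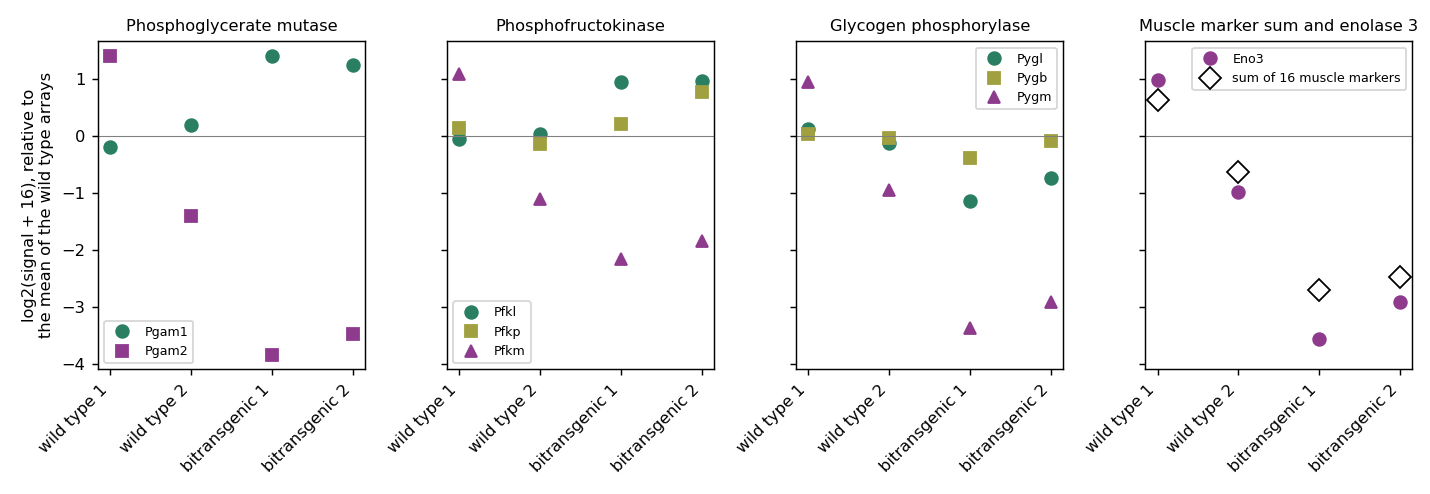
Log2(signal + 16) of each of the 4 arrays relative to the mean of the wild type arrays, for isozymes of 3 steps, for Eno3 and for the summed signal of 16 muscle markers. Purple marks are muscle isozymes, which follow the muscle marker sum with wild type replicate 1 highest, while Pgam1 and Pfkl are higher on both bitransgenic arrays.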

How the data were processed

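Probe set signals were deposited by the authors as array intensity on a linear scale. Per the submitters' processing notes MAS5 and affy were used, with no version or role given in the sources read here. After trimming 2% of probe sets at each end, every array's mean was 500.0. Signals are therefore relative to the rest of the array and cannot show a shift in RNA content per cell. Of 45101 probe sets, 64 were controls, and 34945 others had 1 gene symbol in the platform annotation, 932 several and 9160 none. Probe sets with several symbols named no gene. Array medians lay between 97.9 and 113.1, and precision is limited by the number of arrays.

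Signals were transformed as log2(signal + 16). Probe sets with a mean at or above the 40th percentile (6.19 on the log2 scale, a signal of 57.0) were kept, and the brightest stood for the gene. Bitransgenic and wild type arrays were compared using lmFit and trended eBayes of limma 3.58.1 (R 4.3.3), with 2 residual and 4.45 prior degrees of freedom and adjustment over 13070 genes. The fit was tested on simulated data with known changes.

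The members and all lists were chosen with earlier results of these data known. Signals per array are given for members whose groups did not overlap and differed by at least 1 on the log2 scale, and for others where they help. Of the other pathway genes, those called and the largest difference in each direction of each of 6 lists were named. Promoters were matched by symbol to RefSeq windows on GRCm38.p6. Pseudocounts of 1 and 64, no filter, quantile normalization, equal array medians, the mean of probe sets, other probe set suffixes, replicate number as a block, no trend and leaving out each array were tried.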

Additional observations from a re-analysis of the deposited data

How the results depend on the processing

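Slc2a1 was called higher under all 13 alternatives, and no member that was at least 1 apart on the log2 scale changed sign under any of them. With replicate number as a block, 5 members were called higher (Slc2a1, Pgam1, Slc16a1, Hif1a and Egln3) and none lower, and 3 other pathway genes rose and 6 fell. Calls over all 13070 genes also grew with this block, from 98 higher and 206 lower to 207 and 438. Of the other pathway genes named above, Slc5a1 (adjusted p = 0.042 by limma), Pgam2 (0.039) and Ppp1r3c (0.0387) gained a call with this block. Eno3 and Pygm did so as well. The correlation over genes of same-numbered arrays' deviations was 0.21, but 2 pairs do not show that the numbers pair the animals. Leaving out each array in turn left 1 animal in a group, so differences are given here. They ran from 1.13 to 1.52 for Pgam1, 1.29 to 1.91 for Egln3 and -1.79 to -0.67 for Bnip3. For the other pathway genes it gave 0 to 3 rises and 0 to 15 falls, with none called without either bitransgenic array and the most falls without wild type replicate 2. With equal array medians 4 other pathway genes fell, and calls over all genes were 116 higher and 212 lower. With no filter, or without the trend, 0 other pathway genes rose. Over all genes, 52 of 18193 were called higher with no filter and 67 of 13070 without the trend. When the suffixes _x_at and _s_at were left out, 30 members could be tested, since Aldoa and Slc2a3 had no other past the filter. The median of all genes moved by less than 0.1 on the log2 scale under each scaling. With 2 animals a group, a member that was not called may still differ by several-fold.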
